A study of Mus musculus with 12 samples.

Results

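Genes of actin assembly and the cell cortex were followed in the intervertebral disc of TonEBP +/- and wild-type (WT) mice. The set was a list of 50 gene symbols, of which 46 had a named probe set on the array, 1 each, out of 19505 genes measured in the series. Probe sets for Actg1, Actr2, Arpc3 and Rock2 were not analysed here. The list was drawn by function, without using these signals, though with earlier results of the same arrays known. Total RNA of the outer ring of the lumbar disc, the annulus fibrosus (AF), and of its core, the nucleus pulposus (NP), was hybridized to Clariom S Mouse arrays. The 4 groups were AF of TonEBP +/- mice, AF of WT mice, NP of TonEBP +/- mice and NP of WT mice, with 3 arrays each. All mice were 12 months old and on the C57BL/6 background, none was treated, and each array carried tissue pooled from the lumbar discs (L1 to S1) of a single animal. TonEBP +/- mice are haploinsufficient for TonEBP, the osmotic-stress transcription factor encoded by Nfat5. The labels used here do not describe the mutant allele, the sex of the mice or whether an AF and an NP sample came from the same mouse. The series title names cytoskeletal rearrangement in TonEBP deficiency as a subject of the study, and the question here is which actin genes differed by genotype in each compartment.

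Actin filaments grow from monomers that profilin delivers and thymosin holds in reserve, and cofilin and destrin sever old filaments to return monomers to the pool. The Arp2/3 complex starts side branches that push the membrane outward, capping protein stops growing ends, and filamin, actinin, plastin and fascin tie filaments into networks and bundles. Ezrin, radixin and moesin tether the network to the plasma membrane, nonmuscle myosin contracts it, and small GTPases such as Rac1 and Cdc42 decide where it is built. In the disc, AF cells are elongated fibroblast-like cells with stress fibres, and NP cells descend from the notochord and are rich in cortical actin and keratins. White blood cells also depend on this machinery to crawl and engulf, and L-plastin (Lcp1) and coronin 1A (Coro1a) are known chiefly from them.

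Signals are given as deposited, in log2 units made by the authors with RMA, and a difference of 1 log2 unit is a doubling. Array medians were 7.43 to 7.64 in AF and 6.82 to 6.87 in NP. The interquartile range of the signals was 2.36 to 2.66 on 5 AF arrays, 3.11 on AF TonEBP +/- array 3 and 3.61 to 3.80 in NP, so AF TonEBP +/- array 3 stood apart and results in AF are given with and without it. A probe set was counted as above background where it exceeded the 95th percentile of the array's 23 background probe sets, as 39 of the 46 members did on all 12 arrays. Nfat5 itself read 8.91, 8.94 and 8.74 on the AF TonEBP +/- arrays, against 7.70, 8.69 and 9.93 on the AF WT arrays, and 9.06, 9.62 and 9.09 on the NP TonEBP +/- arrays, against 9.12, 8.80 and 8.34 on the NP WT arrays. It did not pass the test in AF (change 0.09, adjusted p = 0.923) or in NP (change 0.50, adjusted p = 1), and the part of the gene that its probes cover is not given in the sources used here, so this gene does not check the labels. The 7 NP and notochord markers measured averaged 15.03 to 15.21 on NP TonEBP +/- arrays and 15.1 to 15.3 on NP WT arrays, above the 9.33 to 9.98 of AF TonEBP +/- and 9.94 to 11.7 of AF WT. Among AF and tendon markers, Comp, Thbs4 and Fmod were above background on every AF array, while Mkx, Scx and Tnmd were above it on none of the 12. Comp read 6.41 to 7.63 in NP TonEBP +/- and 5.97 to 9.28 in NP WT, below the 13.85 to 15.28 of AF TonEBP +/- and 14.07 to 16.96 of AF WT. Fmod ran the other way, with 18.08 to 18.65 in NP TonEBP +/- and 17.77 to 18.50 in NP WT, above the 12.00 to 13.08 of AF TonEBP +/- and 14.51 to 14.78 of AF WT. The summed signal of the AF and tendon list, as a log2 value, was therefore higher in NP than in AF. It was 18.08 to 18.66 in NP TonEBP +/- and 17.77 to 18.50 in NP WT. In AF it was 14.38 to 15.59 in TonEBP +/- and 15.33 to 17.26 in WT. The mean of the list was instead higher in AF, at 8.67 to 9.04 in TonEBP +/- and 9.17 to 9.96 in WT. In NP it was 7.90 to 8.42 in TonEBP +/- and 7.97 to 8.51 in WT, though array medians were also lower in NP. The sum and the mean ran in opposite directions, so this list does not check the AF label.

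In AF, 13 of the 46 actin genes rose in TonEBP +/- mice and none fell (limma, adjusted p under 0.05 over all 22206 transcript clusters). The 13 belong to 6 of the 7 role groups: 5 to the Arp2/3 complex and its branch regulators, 3 to the crosslinkers, 2 to monomer supply and filament turnover, and 1 each to capping, membrane linkage and the small GTPases with their effectors. Their changes were 1.03 to 1.55 log2 units, with standard errors of 0.25 to 0.42 and adjusted p-values of 0.0162 to 0.0486. These errors and p-values rest on 1 spread per gene pooled over all 12 arrays, NP included. Replicate arrays correlated at 0.942 to 0.969 in AF TonEBP +/- and 0.966 to 0.976 in AF WT. In NP the correlations were 0.985 to 0.988 in TonEBP +/- and 0.985 to 0.986 in WT. The pooled spread can therefore understate that of AF. The 13 genes are 28.3% of the members, where 2.76% of all clusters were called higher, 3.31% lower and 6.07% in either direction. The median change was 0.77 over the members and -0.04 over all clusters, and 42 of 46 members were above 0. An unadjusted p under 0.05 was found for 30 of 46 members and for 5158 of 22206 clusters. Actin genes are bright on these arrays, so the 6244 clusters above background on all 12 arrays are the closer background: their median was 0.24, 6.13% of them were called higher, and the 39 members among them had a median of 0.84. The array ranges did not overlap, TonEBP +/- above WT, for 23 of 46 members (50%, against 10% of all clusters), and no member had the opposite separation (against 12.3% of all clusters). In tissue RNA of this kind, fewer cells of a type and less RNA per cell cannot be told apart.

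**Figure D1:**
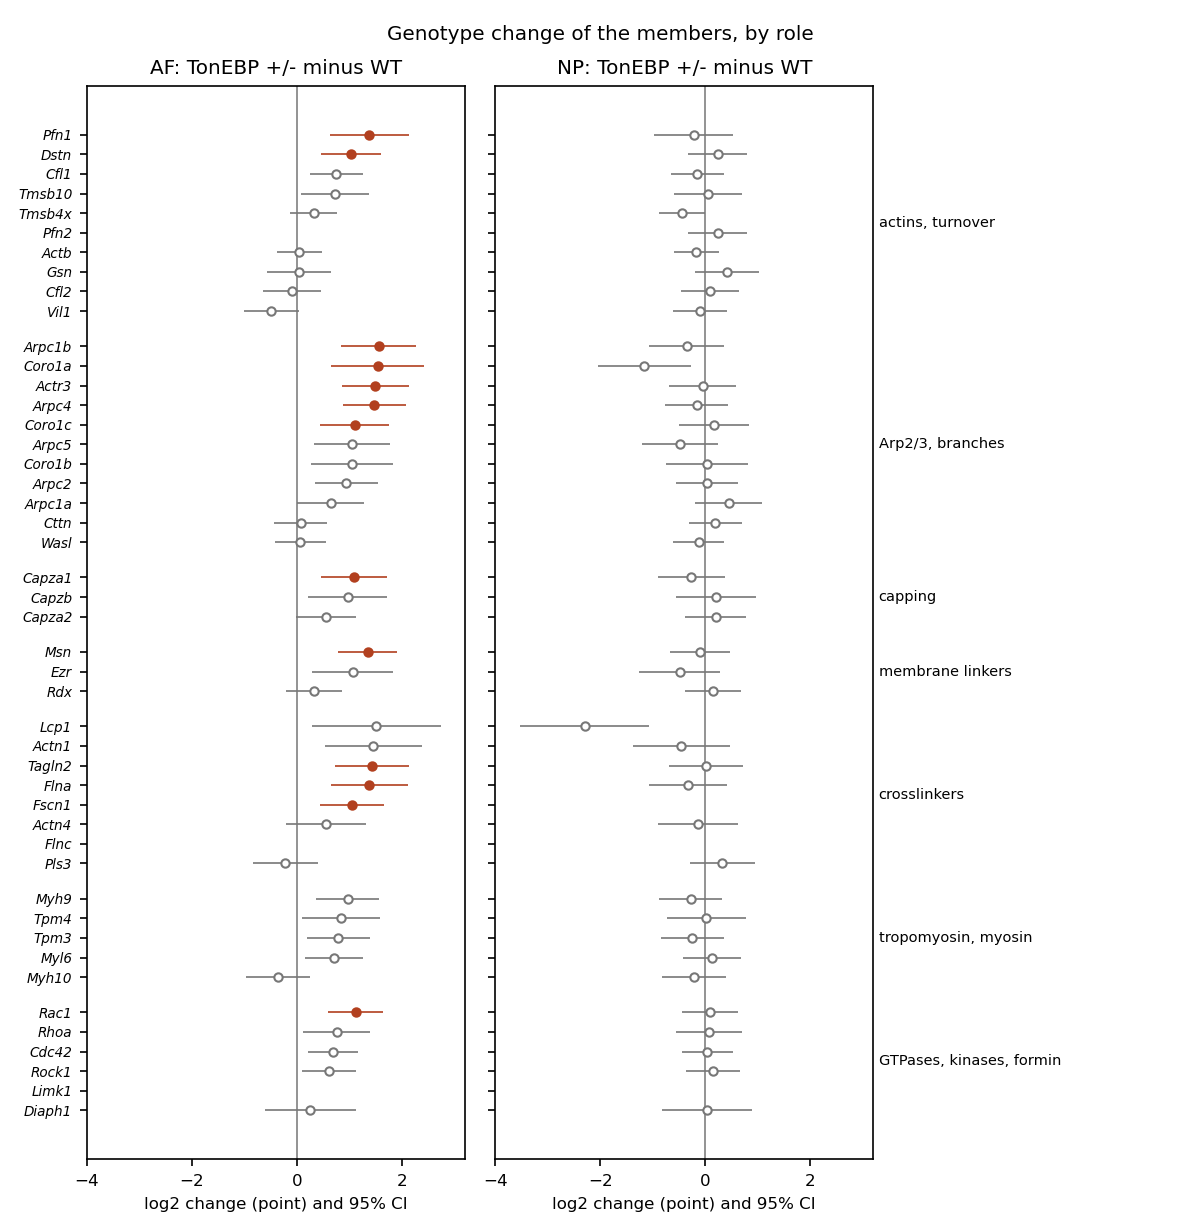
Change of each member between TonEBP +/- and WT, in AF (left) and NP (right), on a log2 scale, with 95% confidence intervals from limma that are not adjusted for the number of genes. The intervals use 1 spread per gene pooled over AF and NP. Filled points passed an adjusted p of 0.05. In each panel 43 members are drawn, since those above background on no array of either genotype have no point. The 13 filled points all lie in AF between 1.03 and 1.55, and NP has none, with Lcp1 and Coro1a farthest to the left there.

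The branching machinery held the most members called. Of its 11 measured members, 5 rose in TonEBP +/- AF, all 11 were above 0, and the median change was 1.05. Arpc4, a core subunit of the Arp2/3 complex, read 13.40, 13.26 and 14.09 on the TonEBP +/- arrays, against 12.44, 11.73 and 12.15 on the WT arrays. It had the smallest adjusted p of the set (change 1.47 ± 0.28 SE, 2.78-fold, adjusted p = 0.0162). Actr3, which with its partner Arp2 forms the seed of a new branch, read 15.77, 15.64 and 16.74 in TonEBP +/- and 15.02, 14.30 and 14.36 in WT (2.81-fold, adjusted p = 0.0177). Arpc1b, a subunit form known for its abundance in blood cells, read 15.56, 15.09 and 16.10 in TonEBP +/- and 14.80, 13.48 and 13.80 in WT (2.94-fold, adjusted p = 0.0219). For each of these 3 subunits, every TonEBP +/- array lay above every WT array, and array 3 was the highest. The coronins, which help to take branches apart, gave 2 further calls. Coro1a read 12.11, 11.47 and 13.12 in TonEBP +/- against 10.99, 10.26 and 10.84 in WT (2.90-fold, adjusted p = 0.0415). Coro1c, the more widely expressed coronin, read 11.23, 11.01 and 12.04 in TonEBP +/- against 10.77, 10.07 and 10.14 in WT (2.14-fold, adjusted p = 0.0486). Both groups separated for each coronin, though array 1 of WT came close to the lower TonEBP +/- arrays.

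The other subunits did not pass. Arpc2 changed by 0.94 (adjusted p = 0.0564) with separate groups, Arpc5 by 1.05 and Arpc1a by 0.64, both with overlap. Coro1b changed by 1.04, with TonEBP +/- array 2 at 8.02 inside the WT range of 7.96 to 8.14. Cortactin (Cttn), which holds branches in place, and N-WASP (Wasl), which switches the complex on, moved least, by 0.07 and 0.06. The Arp2/3 subunits and coronins therefore had changes of 0.64 to 1.55, whereas the activator and the branch stabilizer stayed within 0.1 of 0.

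Among the actins and the proteins of monomer supply and turnover, 2 of 10 measured members rose, and the median change was 0.25. Profilin 1 (Pfn1), which loads monomers onto growing ends, read 15.98, 15.62 and 17.01 in TonEBP +/- and 15.06, 14.79 and 14.64 in WT (2.59-fold, adjusted p = 0.0342). Destrin (Dstn), a depolymerizing relative of cofilin, read 14.11, 14.08 and 14.90 in TonEBP +/- and 13.12, 13.53 and 13.35 in WT (2.04-fold, adjusted p = 0.0359). Both had separate groups, with TonEBP +/- array 3 the highest. Cofilin 1 (Cfl1), its close relative, changed by 0.75 with separate groups but did not pass (adjusted p = 0.0695), and the thymosin Tmsb10 changed by 0.72. Actb, the main cytoplasmic actin, was near the highest signal found anywhere in the file, 19.93, on all 6 AF arrays: 19.91, 19.93 and 19.93 in TonEBP +/-, against 19.86, 19.91 and 19.88 in WT. Its change of 0.04 is therefore limited from above by the scale. The thymosin Tmsb4x, at 19.91, 19.74 and 19.87 in TonEBP +/- and 19.67, 19.45 and 19.46 in WT, was close to the same ceiling (change 0.31). Gelsolin (Gsn), which severs and caps filaments, changed by 0.04, muscle-type cofilin (Cfl2) by -0.10 and villin (Vil1) by -0.49. Profilin 2 (Pfn2) was above background on no AF array.

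Of the 8 crosslinkers, 3 rose, and the median change was 1.21. Filamin A (Flna), which joins filaments into a gel beneath the membrane, read 14.68, 14.72 and 16.33 in TonEBP +/- and 13.96, 13.72 and 13.92 in WT (2.60-fold, adjusted p = 0.0321). Transgelin 2 (Tagln2), a small actin-binding protein of many non-muscle cells, read 11.91, 11.66 and 13.24 in TonEBP +/- and 11.15, 10.52 and 10.85 in WT (2.69-fold, adjusted p = 0.0260). In both, array 3 was more than 1 log2 unit above the other TonEBP +/- arrays, which themselves lay above every WT array. Fascin (Fscn1), a bundler of finger-like protrusions, also passed (adjusted p = 0.0429), at 7.80, 7.38 and 8.24 in TonEBP +/- and 6.39, 7.31 and 6.58 in WT. It was above background on 1 TonEBP +/- array and on no WT array, so no fold is given. L-plastin (Lcp1), a bundler of blood cells, had the largest change of the members not called, 1.51 ± 0.58 SE (adjusted p = 0.127), followed by alpha-actinin 1 (Actn1) at 1.45 (adjusted p = 0.0589). Alpha-actinin 4 (Actn4) changed by 0.56 and T-plastin (Pls3), the plastin of solid tissues, by -0.22. Filamin C (Flnc) was above background on none of the 12 arrays.

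Capping, membrane linkage, contraction and signalling gave 3 more calls. Capza1, a capping protein subunit, read 14.11, 14.06 and 15.08 in TonEBP +/- and 13.80, 13.10 and 13.10 in WT (2.12-fold, adjusted p = 0.0435), while its partners Capzb and Capza2 changed by 0.96 and 0.56 with overlap. Moesin (Msn), the membrane linker most abundant in blood and endothelial cells, read 12.20, 11.37 and 12.25 in TonEBP +/- and 11.00, 10.38 and 10.43 in WT (2.54-fold, adjusted p = 0.0172). Ezrin (Ezr) changed by 1.06 and radixin (Rdx) by 0.32, and neither passed. Rac1, the GTPase that calls on Arp2/3 at the leading edge, read 16.42, 16.26 and 16.95 in TonEBP +/- and 15.79, 15.14 and 15.36 in WT (2.17-fold, adjusted p = 0.0233). After quantile normalization its change was 0.45 and did not pass (adjusted p = 0.200). Its relatives Rhoa and Cdc42 changed by 0.75 and 0.69, the kinase Rock1 by 0.62 and the formin Diaph1 by 0.26, none passing, and the cofilin kinase Limk1 was above background on no array. None of the 5 tropomyosin and myosin members passed. Myh9, the heavy chain of nonmuscle myosin IIA, was closest, with 15.69, 15.39 and 15.98 in TonEBP +/- and 15.27, 14.06 and 14.85 in WT (change 0.97, adjusted p = 0.0541). Its paralog Myh10 changed by -0.37, Tpm3 and Tpm4 by 0.79 and 0.84, and the light chain Myl6 by 0.70.

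**Figure D2:**
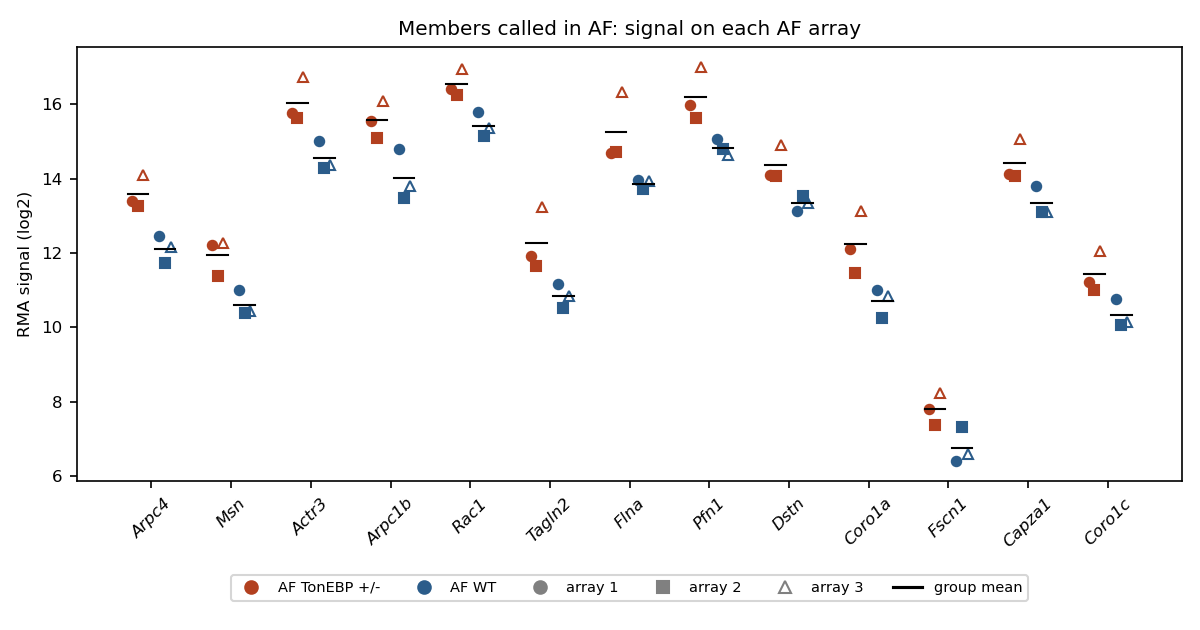
Log2 signal on each AF array for the 13 members that passed the test in AF, from the smallest adjusted p (left) to the largest. Red marks are TonEBP +/- arrays, blue marks WT arrays, circles, squares and open triangles are arrays 1, 2 and 3, and bars are group means. The open red triangle, TonEBP +/- array 3, is the highest mark in every column, and the red marks lie above the blue marks of the same gene.

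The calls in AF depended on single arrays. TonEBP +/- array 3 was the highest of its group for all 13 genes called and for 38 of the 46 members, and array 2 was the lowest for 38. Without array 3, no member passed, and 0.365% of all clusters did (0.144% higher). The 13 genes were still above 0 then, by 0.75 to 1.30 log2 units, with adjusted p-values of 0.0692 to 0.218. Arpc1b kept the largest change, 1.30, Arpc4 changed by 1.22, Msn by 1.19, Actr3 by 1.14 and Flna by 0.84. Over all members the median was 0.54 without array 3, against -0.01 over all clusters, and 39 of 46 members were above 0. Actn4 and Diaph1 were the members with a measurable signal that turned negative, at -0.03 and -0.31. The number of clusters called over the whole array moved as well, from 1347 with all arrays. The number of members called was 3 without TonEBP +/- array 1 (267 clusters) and 30 without TonEBP +/- array 2 (4029 clusters). It was 1 without WT array 2 (193 clusters), 3 without WT array 3 (576) and 9 without WT array 1 (463). It was 8 to 11 when an NP array was left out (898 to 1146 clusters), with 8 without NP TonEBP +/- array 3. Arpc4 and Actr3 passed in 10 of these 12 omissions, Msn in 9, and Coro1c in 2. Leaving out an NP array keeps a change in AF as it was and alters only the estimated spread, so those omissions bear less on it. Actr3 failed without WT array 2 (adjusted p = 0.0616) and without TonEBP +/- array 3 (adjusted p = 0.0751), both AF arrays. With all arrays kept, quantile normalization left 10 of the 13 called, without Rac1, Pfn1 (change 0.90, adjusted p = 0.0741) and Dstn (change 0.79, adjusted p = 0.0740). None of the 13 passed in a fit of the AF arrays alone, where 3 of all clusters did. That fit takes its spread from the AF arrays only and has fewer degrees of freedom. None passed with each array's interquartile range as a covariate, where 38 clusters did.

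**Figure D3:**
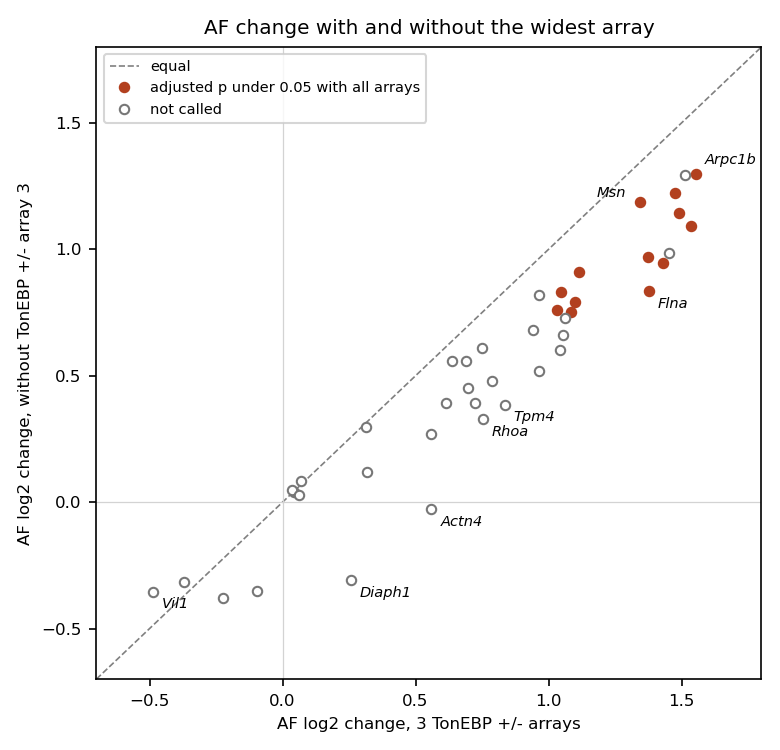
AF change of 43 members on a log2 scale with all 3 TonEBP +/- arrays (horizontal) and without TonEBP +/- array 3 (vertical). The dashed line marks equal values, and filled points passed an adjusted p of 0.05 with all arrays. Most points lie below the line, the filled ones between 0.75 and 1.30 on the vertical axis, and Actn4 and Diaph1 lie above 0 on the horizontal axis and below it on the vertical.

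Markers of white blood cells moved with these genes. The 8 pan-leukocyte markers (Ptprc, Laptm5, Cd52, Cd53, Tyrobp, Fcer1g, Itgb2 and Plek) averaged 14.06, 13.16 and 14.44 on the AF TonEBP +/- arrays, against 13.02, 11.81 and 12.43 on the AF WT arrays. The TonEBP +/- arrays were above the WT arrays, array 3 was again the highest of its group and array 2 the lowest, and all 8 markers were above background on all 6 AF arrays. Their summed signal, as a log2 value, was 16.99 to 17.97 in TonEBP +/- and 15.24 to 16.55 in WT, and 3 of the 8 passed the test as higher. The 10 neutrophil and myeloid precursor markers averaged 16.06 to 16.80 in TonEBP +/- and 14.98 to 15.50 in WT, with 4 passing. Bone cell markers were higher too. The 6 osteoblast markers averaged 12.2 to 12.8 in TonEBP +/- and 9.15 to 11.0 in WT, with 5 passing, and the 7 osteoclast markers 10.4 to 11.7 in TonEBP +/- and 7.91 to 9.75 in WT, with 3 passing. Of the 7 macrophage markers, which averaged 8.69 to 9.81 in TonEBP +/- and 7.93 to 8.30 in WT, 2 passed as higher, and so did 1 of the 6 endothelial markers. Other lists ran lower. The 6 cartilage markers averaged 13.05 to 14.34 in TonEBP +/- and 13.39 to 15.46 in WT, with 2 passing as lower (median change -1.20). The 6 AF and tendon markers averaged 8.67 to 9.04 in TonEBP +/- and 9.17 to 9.96 in WT, and 1 of them passed as lower, as did 1 of the 7 NP and notochord markers (median change -0.78). AF TonEBP +/- array 3 had the lowest mean of its group for the cartilage and the AF and tendon lists. No marker of skeletal muscle, vascular smooth muscle and pericytes, or erythroid cells passed. The part of these cells in the actin changes was not tested.

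Promoters of the members were searched for the binding sites of factors tied to the question. The windows run 250 bases up from the start of transcription and 50 bases down, from RefSeq on GRCm38.p6, and 40 of the 46 members had one, 12 of the 13 genes called in AF among them. The CArG box, which binds serum response factor, the factor that follows the pool of free actin, was found on either strand in 3 members (7.5%): Arpc4, which was called, and Myl6 and Vil1, which were not. It was found in 1.81% of 27025 genes. The letters TGGAAA, the core of the element that TonEBP binds, were found on either strand in 6 members (15%), against 23.9% of all genes. Of the genes called in AF only Pfn1 held it, and no member's window held both motifs. Of the 12 genes called with a window, 1 held each motif (8.33%), against 1.81% of all genes for the CArG box and 23.9% for TGGAAA. Most windows of all genes lack these letters, so the counts decide nothing about either factor. Sequence outside the windows was not searched. A match in letters is a description and not a site in use. The 250 bases upstream of the start are shown for Arpc4, the gene with the smallest adjusted p, for Myl6 and Vil1, which hold the same kind of box without a call, and for Pfn1, with the motif in capitals (chr6:113377863-113378112, plus strand; chr10:128493010-128493259, minus strand; chr1:74409134-74409383, plus strand; chr11:70654651-70654900, minus strand).
Arpc4: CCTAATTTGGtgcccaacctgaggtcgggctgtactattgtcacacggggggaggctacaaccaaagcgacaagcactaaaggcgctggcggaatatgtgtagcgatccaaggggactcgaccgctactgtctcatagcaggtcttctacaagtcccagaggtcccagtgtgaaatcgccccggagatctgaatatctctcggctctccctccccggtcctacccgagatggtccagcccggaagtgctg
Myl6: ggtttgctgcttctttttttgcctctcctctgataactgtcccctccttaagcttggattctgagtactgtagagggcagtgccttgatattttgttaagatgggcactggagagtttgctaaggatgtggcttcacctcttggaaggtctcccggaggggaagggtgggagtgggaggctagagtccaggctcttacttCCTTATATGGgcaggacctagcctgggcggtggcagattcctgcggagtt
Vil1: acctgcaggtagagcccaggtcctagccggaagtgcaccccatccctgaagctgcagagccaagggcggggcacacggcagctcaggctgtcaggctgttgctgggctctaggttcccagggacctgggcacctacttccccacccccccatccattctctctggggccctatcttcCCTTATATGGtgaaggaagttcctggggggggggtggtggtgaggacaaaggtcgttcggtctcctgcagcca
Pfn1: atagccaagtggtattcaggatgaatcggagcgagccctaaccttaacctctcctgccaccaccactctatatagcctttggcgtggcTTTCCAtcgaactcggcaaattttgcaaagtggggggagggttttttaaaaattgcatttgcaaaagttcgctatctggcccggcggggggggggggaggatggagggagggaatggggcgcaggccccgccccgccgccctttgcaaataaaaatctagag
Counted from the start of transcription, the box spans positions -250 to -241 in Arpc4, -73 to -64 in Vil1 and -50 to -41 in Myl6, and the 6 letters span -162 to -157 in Pfn1, on the opposite strand.

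In NP, no actin gene passed limma's test between TonEBP +/- and WT, where 25 of 22206 clusters (0.113%) did, all of them lower. The median change of the members was -0.03, against 0.01 over all clusters, and 22 of 46 were above 0. An unadjusted p under 0.05 was found for 2 of 46 members and for 827 of 22206 clusters, which is a similar share. The 2 members were Lcp1 and Coro1a, and neither passed after adjustment. Lcp1 read 11.32, 9.38 and 12.06 on the TonEBP +/- arrays, against 13.78, 13.83 and 12.02 on the WT arrays (change -2.30 ± 0.58 SE, adjusted p = 0.265). The groups overlapped, since WT array 3 lay among the TonEBP +/- values. Without WT array 3, Lcp1 changed by -2.89 and passed (adjusted p = 0.0435), the 1 omission in which a member was called in NP. Coro1a read 6.94, 6.00 and 7.18 in TonEBP +/- and 8.36, 8.10 and 7.14 in WT (adjusted p = 0.930). It was above background on no NP TonEBP +/- array, so its change, -1.16 as measured, has only a bound there. The bound is the WT mean, 1.61-fold above the background level of the TonEBP +/- arrays. The array ranges overlapped and the test did not pass, so the bound is not read as a fall.

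The next 6 members by p in NP had changes of less than 0.5 in either direction, each with an adjusted p of 1. Tmsb4x, with 16.43, 16.41 and 16.46 in TonEBP +/- and 16.73, 17.15 and 16.72 in WT, had separate groups (change -0.44). Ezr did so too, with 13.56, 14.07 and 14.30 in TonEBP +/- and 14.32, 14.48 and 14.60 in WT (change -0.49). Arpc5 read 10.01, 9.18 and 9.63 in TonEBP +/- and 10.12, 10.22 and 9.92 in WT, overlapping slightly (change -0.48). The remaining members of the 8 ran the opposite way, all with overlap. Arpc1a read 7.60, 8.10 and 8.39 in TonEBP +/- and 7.34, 7.83 and 7.58 in WT (change 0.45). Gsn read 13.65, 13.43 and 12.93 in TonEBP +/- and 13.19, 12.76 and 12.84 in WT (change 0.41). Pls3 read 13.99, 13.98 and 13.93 in TonEBP +/- and 13.24, 13.66 and 14.02 in WT (change 0.33). In all, 4 members (8.7%) had TonEBP +/- arrays below all WT arrays, Actn1 and Myh9 being the others, against 5.93% of all clusters. The opposite separation was seen for Capza2 and Capzb (4.35%), against 5.34%. The 13 genes that rose in AF had NP changes of -1.16 to 0.23.

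The pan-leukocyte markers were low in NP, averaging 6.54 to 7.77 in TonEBP +/- and 7.91 to 9.39 in WT, with 2 of 8 in TonEBP +/- and 6 of 8 in WT above background on all 3 arrays. They were lower in TonEBP +/-, as the means of Lcp1 and Coro1a were, and on NP WT array 3, at 7.91, where Lcp1 and Coro1a were lowest among WT. None of the 8 passed in NP. The 10 neutrophil markers averaged 8.54 to 10.05 in TonEBP +/- and 10.78 to 12.18 in WT, with separate groups, and 3 of them passed as lower (median change -2.14): Mpo, Ctsg and Elane. Of the 4 erythroid markers, which averaged 7.59 to 7.82 in TonEBP +/- and 9.09 to 10.78 in WT, Slc4a1 passed as lower (median change -1.92). No marker of the other lists passed in NP. The part of these cells in the NP values was not tested.

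The genotype change differed between the compartments for 2 members, Lcp1 and Coro1a, by the interaction test (AF change minus NP change), which called 0.887% of all clusters, 0.766% with the higher change in AF and 0.122% with the higher change in NP. The difference was 3.81 ± 0.82 SE for Lcp1 (adjusted p = 0.0407) and 2.70 ± 0.59 SE for Coro1a (adjusted p = 0.0421), or 2.22 for Coro1a with its NP change at the bound. In AF, Lcp1 read 17.36, 17.47 and 18.08 in TonEBP +/- and 16.84, 15.52 and 16.01 in WT, so the TonEBP +/- arrays lay above every WT array in AF, whereas in NP they lay below WT arrays 1 and 2. Without AF TonEBP +/- array 3 neither passed, though the differences remained at 3.59 (adjusted p = 0.0915) and 2.25 (adjusted p = 0.0861). Over the 12 omissions Lcp1 passed in 4 and Coro1a in 3. No member was called when any 1 of AF TonEBP +/- arrays 1 and 3, AF WT arrays 2 and 3, NP TonEBP +/- arrays 1 and 2 or NP WT arrays 1 and 2 was left out. The count was 1 without NP TonEBP +/- array 3, 4 without AF WT array 1 or NP WT array 3, and 16 without AF TonEBP +/- array 2. The share of all clusters called in each omission is not given here, so these counts are not read as particular to actin genes. The members next in order did not pass: Arpc4 differed by 1.64 (adjusted p = 0.0681), Arpc1b by 1.91, Msn by 1.44, Actr3 by 1.54, Flna by 1.71 and Arpc5 by 1.54, with adjusted p-values up to 0.147. Over all members the median difference was 0.78, against -0.05 over all clusters, and 39 of 46 were above 0.

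**Figure D4:**
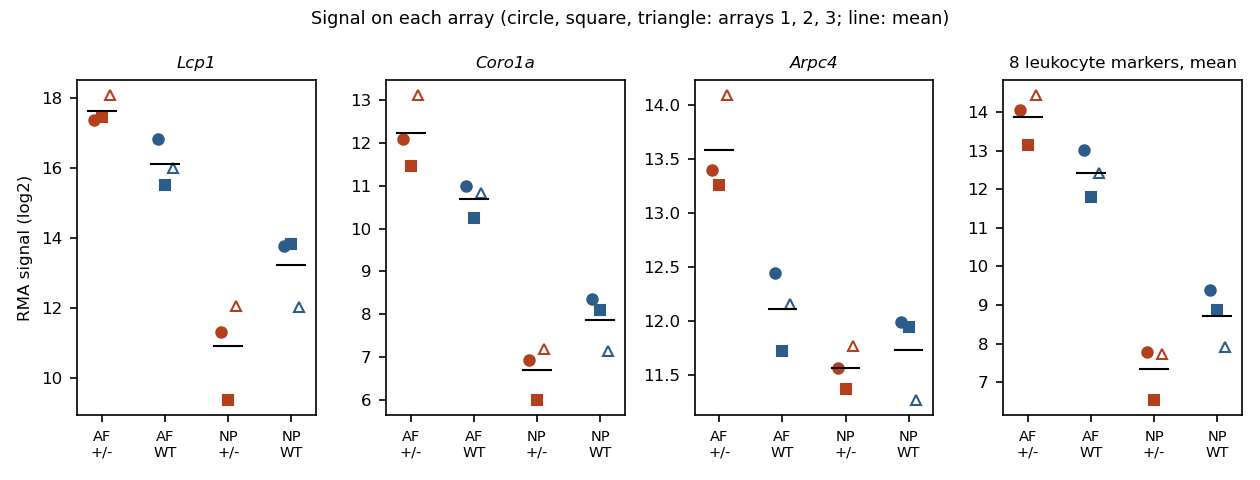
Log2 signal of Lcp1, Coro1a and Arpc4 and the mean of the 8 pan-leukocyte markers on every array (circle, square and triangle for arrays 1, 2 and 3, with the group mean as a line, TonEBP +/- in red and WT in blue). Each panel has its own scale, and levels are not comparable between panels. Lcp1, Coro1a and the markers are higher in TonEBP +/- than in WT in AF and mostly lower in NP, while Arpc4 is higher in AF and overlaps in NP.

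Among actin regulators beyond the set, rises also outnumbered falls in AF. Of 66 further regulators listed with the same earlier results known, 60 were measured. In TonEBP +/- AF 13 rose and 1 fell, with a median change of 0.41, where 2.76% of all clusters were called higher and 3.31% lower. Values without AF TonEBP +/- array 3 are not given for this list. Wdr1, which speeds filament disassembly with cofilin, changed by 1.09, Marcks, a membrane protein that binds actin, by 1.38, the myosin light chain Myl12b by 1.31 and the tropomyosin Tpm1 by 1.27 (adjusted p-values of 0.0162 to 0.0219). Scin, a severing protein of the gelsolin family, was the gene that fell, with 9.47, 9.75 and 9.23 in TonEBP +/- and 9.77, 11.13 and 11.96 in WT (adjusted p = 0.0350). None of the 60 passed in NP, where 0.113% of all clusters did. In the interaction 4 passed, where 0.887% of all clusters did. They are named here after their values were seen. Rac2, the Rac form of blood cells, differed by 3.64 (adjusted p = 0.0167), and Hcls1, the cortactin relative of blood cells, by 2.99. Cap1 differed by 2.15 and Marcks by 2.03. Hcls1 was above background on no NP TonEBP +/- array, so its value is as measured near background.

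Between the compartments, the actin genes split into a set higher in NP and a set lower there. Which set was the larger depended on the scaling and the genotype. These differences are NP minus AF after the median of each array was subtracted, and they were repeated on the values as deposited and after quantile normalization. In TonEBP +/- mice, 37 of 46 members passed, 20 higher and 17 lower in NP, where 56.2% of all clusters passed (30.9% higher and 25.3% lower). In WT mice, 34 passed, 26 higher and 8 lower, where 65% of clusters passed (33.7% higher and 31.3% lower). The median difference was 0.26 over the members and -0.06 over all clusters in TonEBP +/-, and 1.02 over the members and -0.10 over all clusters in WT. Across genotypes, 20 members were higher in NP in both, 8 were lower in both and none took opposite directions. The share of all clusters that did so is not given here, so this count is not read as particular to actin genes. The arrays of the compartments did not overlap for 20 members higher in NP and 17 lower in TonEBP +/- (against 32.1% and 28.2% of clusters), and for 27 higher and 9 lower in WT (against 36.1% and 35.5%). The 2 comparisons share no array, but both carry the change of scale between the compartments.

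The 6 largest rises in NP were the same genes in both genotypes. Actn4 read 15.92, 15.89 and 15.85 in NP TonEBP +/- against 11.15, 11.13 and 12.89 in AF TonEBP +/-, and 16.07, 16.14 and 15.87 in NP WT against 11.46, 10.96 and 11.07 in AF WT (difference 4.85 in TonEBP +/- and 5.60 in WT). Pls3 read 13.99, 13.98 and 13.93 in NP TonEBP +/- against 10.13, 9.67 and 10.37 in AF TonEBP +/- (difference 4.60), and 13.24, 13.66 and 14.02 in NP WT against 9.65, 10.46 and 10.74 in AF WT (difference 4.10). Cttn read 12.33, 12.66 and 12.52 in NP TonEBP +/- against 9.15, 9.07 and 9.06 in AF TonEBP +/- (difference 4.10), and 12.31, 12.49 and 12.13 in NP WT against 8.63, 8.99 and 9.45 in AF WT (difference 4.03). The compartments stood apart on every array for these genes, by far more than the spread within a group. Ezr, the linker typical of epithelial cells, differed by 2.51 in TonEBP +/- and 4.11 in WT, Cfl2 by 3.53 in TonEBP +/- and 3.39 in WT, and Rhoa by 2.40 in TonEBP +/- and 3.13 in WT. Each of the 6 passed with an adjusted p of at most 3.75e-05 and under all 3 scalings tried.

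The falls in NP were led by Lcp1 and Coro1a in both genotypes. Lcp1 differed by -6.03 ± 0.59 SE in TonEBP +/- and -2.17 ± 0.59 SE in WT. Coro1a was at least 20.6-fold lower in NP in TonEBP +/-, where it was above background on no NP array, and differed by -2.09 ± 0.44 SE in WT. Tmsb4x differed by -2.72 in TonEBP +/- and -1.92 in WT, and Arpc5 by -2.97 in TonEBP +/- and -1.38 in WT. Flna was among the largest falls in TonEBP +/-, by -2.71, and Tpm3 in WT, by -1.56. Fscn1, called lower in both, was above background on 1 of the 12 arrays, in AF TonEBP +/-, so no fold is given. The leukocyte markers were also lower in NP, as the values above show, and their part in these falls was not tested. The median over clusters shifted by -0.75 in TonEBP +/- and -0.84 in WT on the values as deposited, so the direction of small differences depends on the scaling. The members' median was -0.43 in TonEBP +/- and 0.28 in WT as deposited, and -0.51 in TonEBP +/- and -0.14 in WT after quantile normalization. In TonEBP +/-, 16 members were called higher and 22 lower as deposited (against 20% and 54.4% of all clusters), and 11 higher and 21 lower after quantile normalization (against 24.7% and 24.2%). In WT, 18 were called higher and 16 lower as deposited (against 22.2% and 56.1% of all clusters), and 16 higher and 17 lower after quantile normalization (against 27.1% and 27.3%). Under all 3 scalings, 10 members were called higher and 16 lower in TonEBP +/- (against 17.9% and 18.2% of all clusters), and 15 higher and 8 lower in WT (against 19.2% and 22.1%). Arpc5 and Flna were lower under all 3 scalings in both genotypes. Actb, Actn1, Actr3, Arpc1b, Arpc2, Arpc4, Pfn1 and Capza1 were so in TonEBP +/- and not in WT. Rac1, Dstn, Tmsb10, Myl6 and Tpm4 were called higher under all 3 scalings in WT and not in TonEBP +/-. None of the genes called so in 1 genotype only passed the interaction test, which compares the genotypes directly.

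**Figure D5:**
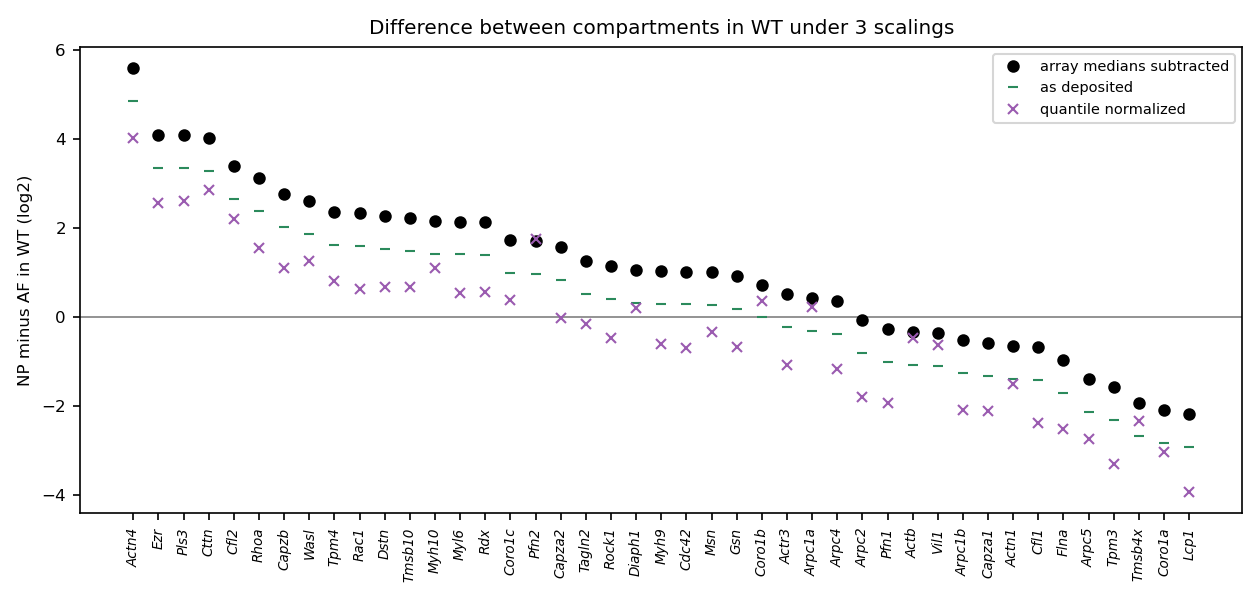
NP minus AF in WT, in log2 units, for 43 members ordered by the difference after the array medians were subtracted (black points), beside the values as deposited (green dashes) and after quantile normalization (purple crosses). Flnc, Fscn1 and Limk1, above background in neither WT group, are left out. Actn4 is highest at 5.60 and Lcp1 lowest at -2.17 by the black points, and the 3 scalings give different signs for members near the middle of the order.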

How the data were processed

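The authors deposited log2 signals of 12 Clariom S Mouse arrays. These were made with RMA in Affymetrix Expression Console, the tools that the submitters' processing notes list with no version, and which arrays were normalized together is not given in the sources used here. Of 28846 probe sets, 22206 transcript clusters were tested, and the other 6640, controls, were left out. Gene symbols were taken from the platform annotation and from RefSeq's GRCm38.p6 gene table. The actin genes, the other gene lists and the rule for named genes were chosen with earlier results of these data known. A member's probe set was the one with the highest mean over the 12 arrays.

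A linear model with 1 mean per group was fitted in R 4.3.3 with limma 3.58.1 (lmFit, eBayes) to all 12 arrays, with 8 residual degrees of freedom. Genotype and the interaction were tested on the deposited log2 values, and NP against AF on values minus each array's median. P-values were adjusted by Benjamini and Hochberg over all clusters, with a threshold of 0.05. The script was tested on simulated data. Genes were named by rule: members called in a genotype comparison, or the 8 with the smallest p where fewer passed, the 6 largest rises and falls between compartments, and 4 other regulators per direction. Others named with values complete a role group. Where a group had no array above background, a change is a bound against that group's background level, and none is given where both groups had none. The alternatives left out each array, changed the scaling, the filter, the moderation or the probe set rule, used array weights, an interquartile range covariate or 1 tissue alone. Nothing in the labels ties samples to batches, and 3 arrays per group limit the precision. Arrays were checked for duplicates, and the closest pair differed with an SD of 0.414 over clusters. Plots were made with matplotlib 3.10.9 under Python 3.11.15.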

Additional observations from a re-analysis of the deposited data

Results flagged for a closer look

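The genotype change of Lcp1, the plastin of blood cells, differed between AF and NP by 3.81 log2 units, as the interaction test found (adjusted p = 0.0407). It was higher in TonEBP +/- on 3 of 3 AF arrays and lower on the NP mean. The same test gave a difference of 2.70 for Coro1a, the coronin of blood cells (adjusted p = 0.0421), or 2.22 with its NP change at the bound. The 8 pan-leukocyte markers moved in the same directions, averaging 13.16 to 14.44 in AF TonEBP +/- against 11.81 to 13.02 in AF WT, and 6.54 to 7.77 in NP TonEBP +/- against 7.91 to 9.39 in NP WT. The part of these cells was not tested. Leaving out single arrays gave 3.04 to 4.40 for Lcp1, with adjusted p-values of 0.0114 to 0.134, and 2.25 to 3.08 for Coro1a, with adjusted p-values of 0.00984 to 0.135. Lcp1 passed in 4 of the 12 omissions and Coro1a in 3, and neither passed without AF TonEBP +/- array 3. Coro1a was above background on no NP TonEBP +/- array.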

How the results depend on the processing

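No paired analysis was possible because the replicate numbers were given in accession order and nothing in the labels ties samples of different groups to a shared animal or day. In AF, 13 members were called. The count was 0 in a fit of the AF arrays alone, 26 with array weights, 0 once each array's interquartile range was a covariate, where the median change was 0.35, and 0 to 30 when single arrays were left out, with medians of 0.54 to 1.10. Of all clusters, 3, 2815, 38 and 81 to 4029 were called in these settings, against 1347 in the main fit. The members called were 11 to 15 with array medians subtracted, quantile normalization, a filter on dim clusters and robust moderation. In that order, 1276, 1982, 1494 and 1314 of all clusters were called. Quantile normalization called 10 of the same 13 members. The mean of a gene's probe sets could not change a member's values, since each member has 1. In NP the count was 0 in every setting except 1 omission, and 0 to 1 over the omissions. The interaction count of 2 was 1 with array medians subtracted, 10 with array weights and 0 to 16 over the omissions. The numbers of all clusters called in these interaction settings are not given here. Between compartments the totals over both directions stayed within 1.5 times in all settings tried. Split by direction they moved more: after quantile normalization 11 members were called higher in TonEBP +/-, against 20 with array medians subtracted, and in WT 16 higher and 17 lower, against 26 and 8. The medians were -0.43 in TonEBP +/- and 0.28 in WT as deposited, and -0.51 in TonEBP +/- and -0.14 in WT after quantile normalization. Of 563 alternative values of single named genes, 120 lost their call, 16 gained one and none reversed its direction. That none reversed was partly fixed in advance, since these genes were named for their small p-values in the same data. For a change in AF, omitting an NP array, fitting AF alone, the filter, the probe set rule and robust moderation also keep the estimate unchanged. Among all members, 9 changed sign in some AF setting, none of them among the 13 called. The cause of the shifts in counts, medians and calls was not tested. By design, fewer arrays leave fewer degrees of freedom, and a fit of AF alone does not pool its spread with NP. The number of arrays, the scale's ceiling for Actb and Tmsb4x, and background for Fscn1, Flnc and Limk1 limit what can be read.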
